A study of Mus musculus with 43 samples.

Results

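Pcgf1/6 DKO oocytes are mouse full-grown oocytes that lack both Pcgf1 and Pcgf6, and their RNA was compared with that of wild-type (WT) full-grown oocytes. The comparison holds 6 of the 43 libraries of the series, 3 of WT and 3 of the Pcgf1/6 double knockout (DKO). Of 35842 gene symbols in the table, the 12417 with a mean of at least 1 RPKM in WT or in DKO were tested, whatever their function. RPKM are reads per kilobase of transcript, divided by the size of the library. The tissue label of all 6 libraries is ovary, the stage label is full-grown oocyte, and the molecule is polyadenylated RNA. The same table holds 3 libraries of oocytes that also lack Mll2 (the Pcgf1/6 and Mll2 triple knockout, TKO). The Cre driver, the strain, the age of the females and the number of oocytes in each of these libraries are not given in the sources used here. Other libraries served only for side-by-side values: oocytes with catalytically dead PRC1 (PRC1-CD, 2 libraries) and their controls (PRC1-WT, 2 libraries), each library from 10 pooled oocytes, and 10 WT and 10 maternal Pcgf1/6 DKO morula libraries. The study asked how variant Polycomb complexes and MLL2 shape the oocyte, and this comparison asks what removing the variant complexes does to the oocyte's RNA.

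Polycomb repressive complex 1 (PRC1) attaches ubiquitin to histone H2A at lysine 119 and keeps genes silent. PCGF1 is the defining subunit of the variant form PRC1.1, and PCGF6 that of PRC1.6. PRC1.1 is drawn to unmethylated CpG islands by KDM2B, and PRC1.6 to germline gene promoters by the DNA-binding partners MGA with MAX and E2F6 with DP1. In the growing oocyte the mark laid down by PRC1 guides H3K27 trimethylation by PRC2. Some of that methylation persists in the embryo and silences the maternal copy of noncanonically imprinted genes. The germline genes of meiotic prophase are by then largely past their use, since a full-grown oocyte is arrested at the end of that stage.

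The promoters of the leading germline, Hox and metallothionein genes that rose are printed because the DNA-binding partners of PRC1.6 recognise short motifs. Each is RefSeq sequence of GRCm38.p6 from 250 bases before to 50 bases after an annotated start, written 5′ to 3′ on the gene's strand. Only the first entry of a gene was used, and other annotated starts were not searched. Capitals mark the E-box CACGTG and the E2F-type motif GCGGGAA, and for Mt1 the metal response element cores TGCGCNC and TGCACNC, searched on both strands. They lie at chr8:94178839-94179138, plus strand for Mt1, at chr3:82876434-82876733, minus strand for Rbm46, at chr7:140787805-140788104, minus strand for Syce1 and at chr11:102665335-102665634, plus strand for Meioc. The others lie at chr2:74704365-74704664, plus strand for Hoxd8, at chr2:74762730-74763029, plus strand for Hoxd1, at chr3:95559427-95559726, plus strand for Hormad1 and at chr10:88459337-88459636, plus strand for Sycp3.
Mt1: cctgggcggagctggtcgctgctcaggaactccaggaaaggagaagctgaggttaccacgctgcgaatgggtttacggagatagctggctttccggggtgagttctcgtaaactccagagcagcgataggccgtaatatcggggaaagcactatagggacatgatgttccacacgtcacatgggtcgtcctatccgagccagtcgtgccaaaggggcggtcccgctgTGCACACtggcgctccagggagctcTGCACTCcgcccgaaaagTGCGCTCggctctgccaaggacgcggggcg
Rbm46: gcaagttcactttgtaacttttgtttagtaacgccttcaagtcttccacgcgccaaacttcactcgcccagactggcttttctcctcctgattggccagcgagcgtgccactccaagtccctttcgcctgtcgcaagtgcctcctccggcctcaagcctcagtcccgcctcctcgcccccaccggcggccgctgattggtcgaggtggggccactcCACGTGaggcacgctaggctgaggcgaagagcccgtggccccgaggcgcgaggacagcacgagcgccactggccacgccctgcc
Syce1: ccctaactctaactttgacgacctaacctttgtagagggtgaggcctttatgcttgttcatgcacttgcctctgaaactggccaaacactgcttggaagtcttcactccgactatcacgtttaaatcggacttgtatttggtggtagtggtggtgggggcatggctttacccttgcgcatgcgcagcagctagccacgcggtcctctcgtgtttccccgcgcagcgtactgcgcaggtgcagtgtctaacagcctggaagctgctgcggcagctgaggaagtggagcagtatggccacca
Meioc: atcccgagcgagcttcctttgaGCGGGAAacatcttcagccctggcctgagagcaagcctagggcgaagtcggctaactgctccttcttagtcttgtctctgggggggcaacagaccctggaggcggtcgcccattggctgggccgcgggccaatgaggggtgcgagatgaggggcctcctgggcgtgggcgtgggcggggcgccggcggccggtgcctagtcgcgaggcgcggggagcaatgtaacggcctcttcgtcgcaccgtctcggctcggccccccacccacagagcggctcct
Hoxd8: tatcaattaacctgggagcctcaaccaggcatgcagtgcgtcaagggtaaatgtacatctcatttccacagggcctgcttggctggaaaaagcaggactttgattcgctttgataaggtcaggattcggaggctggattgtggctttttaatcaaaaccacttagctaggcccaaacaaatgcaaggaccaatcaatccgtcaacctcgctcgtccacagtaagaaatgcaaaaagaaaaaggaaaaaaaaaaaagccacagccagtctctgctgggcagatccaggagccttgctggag
Hoxd1: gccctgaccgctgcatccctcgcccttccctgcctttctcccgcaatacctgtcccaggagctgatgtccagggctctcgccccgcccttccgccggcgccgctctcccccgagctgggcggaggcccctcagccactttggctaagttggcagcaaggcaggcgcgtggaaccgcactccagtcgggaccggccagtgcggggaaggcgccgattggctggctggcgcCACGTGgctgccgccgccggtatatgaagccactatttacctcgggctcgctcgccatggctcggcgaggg
Hormad1: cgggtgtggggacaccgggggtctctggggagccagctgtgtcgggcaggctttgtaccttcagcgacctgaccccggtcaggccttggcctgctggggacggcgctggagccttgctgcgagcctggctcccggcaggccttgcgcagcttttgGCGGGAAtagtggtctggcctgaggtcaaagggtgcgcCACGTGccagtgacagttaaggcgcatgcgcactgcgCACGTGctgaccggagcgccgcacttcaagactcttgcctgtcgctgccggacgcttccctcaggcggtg
Sycp3: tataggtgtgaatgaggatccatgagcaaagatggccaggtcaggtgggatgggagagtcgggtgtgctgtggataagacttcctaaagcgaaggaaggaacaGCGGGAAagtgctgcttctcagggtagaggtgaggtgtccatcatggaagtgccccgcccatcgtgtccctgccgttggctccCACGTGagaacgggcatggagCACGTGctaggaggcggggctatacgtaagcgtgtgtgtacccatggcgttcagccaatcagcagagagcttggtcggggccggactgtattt
The Mt1 window held 3 metal response element cores. Hormad1 and Sycp3 each held 2 copies of CACGTG and 1 of GCGGGAA, Rbm46 and Hoxd1 held 1 CACGTG, and Meioc held 1 GCGGGAA. Neither motif was found in the windows of Syce1 and Hoxd8.

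Promoters were matched by symbol for 9647 of the 12417 tested genes (77.7%). The first entry was taken for the 4163 symbols of the reference table that have several. Of the 20 meiotic prophase and piRNA genes that rose, 18 had a promoter entry, and 9 of the 18 (50%) held CACGTG and 7 (38.9%) held GCGGGAA. Among the other 41 tested genes of those lists, 34 had an entry, with CACGTG in 9 (26.5%) and GCGGGAA in 6 (17.6%). Over the 9647 tested genes with an entry the shares were 10.1% for CACGTG, 8.1% for GCGGGAA, 25.5% for TGCGCNC and 12.6% for TGCACNC. Over all 27025 promoters of the reference table they were 7.2%, 4.7%, 15.5% and 12.4%. Of the 507 genes that rose by at least 2-fold 383 (75.5%) had an entry, and 12.8% of these held CACGTG and 8.4% held GCGGGAA, close to the tested genes at large. Of the Hox, homeobox, forkhead, GATA and SOX genes that rose 17 of 25 had an entry, with CACGTG in 2 and GCGGGAA in 0. Genes without an entry are left out of all these shares, which are descriptions of sequence and were not tested.

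Summed RPKM, which are already divided by library size and so do not show it, lay between 667922 and 668777 in WT. In DKO they lay between 674471 and 687461. In WT 11380 to 11464 genes reached 1 RPKM, against 11870 to 12088 in DKO. Low values of intronless receptor genes fell in steps, and the size of a step put the depth at about 19230000 to 22730000 reads per library (70.3% to 78.7% of those values lay within 0.1 of a whole read). The best step was sought only within a range set beforehand, which also bounds the depth, so this is a rough estimate. All 18 oocyte markers were expressed, with sums of 26807 to 28843 RPKM over the 6 libraries. Of 21 granulosa and cumulus cell markers, 16 stayed under 1 RPKM in all 6 libraries and Foxl2 was listed at 0. Their summed level was 31.4 to 35.1 RPKM in WT and 29.2 to 34.1 in DKO. Summed stroma markers stood at 3.13 to 4.29 RPKM in WT and 1.22 to 1.75 in DKO, with Col1a1, Col1a2, Col3a1, Tagln and Pdgfrb listed at 0. Summed blood markers stood at 23.2 to 32.0 RPKM in WT and 43.9 to 61.9 in DKO. C1qb made up nearly all of that sum, while Ptprc, Hba-a2 and Hbb-bs were listed at 0. Whether libraries came from separate females is not in the labels, so the p-values speak to the spread among the libraries of the fit alone. These were 9, the 3 TKO libraries included, and that spread may be technical.

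Of the deleted genes, Pcgf1 (chromosome 6, 83077552 to 83080855) read 1094, 1153 and 1077 RPKM in WT and 10.6, 12.9 and 13.3 RPKM in DKO. All DKO libraries lay far below all WT libraries, and the gene fell by 6.39 ± 0.10 on the log2 scale (SE, adjusted p = 1.13e-10). Pcgf6 (chromosome 19, 47033617 to 47050939) read 148, 159 and 155 RPKM in WT and 60.3, 56.04 and 55.05 RPKM in DKO. The groups were again apart, with much of the Pcgf6 signal left in DKO, and it fell by 1.41 ± 0.09 on the log2 scale (SE, adjusted p = 5.51e-06). RPKM over the whole transcript does not separate deleted from remaining exons. Kmt2b, which encodes MLL2 and is intact in DKO, read 4.43, 5.16 and 4.96 RPKM in WT and 4.21, 3.91 and 3.58 RPKM in DKO, a log2 change of -0.26 ± 0.10 that did not pass the test (adjusted p = 0.106). Over all tested genes 18.1% were higher and 11.9% lower. Of 24 tested genes within 1 Mb of Pcgf1, 6 were higher and 1 was lower, and of 28 around Pcgf6, 4 were higher and 2 lower. Close to Pcgf1 these included the homeobox gene Lbx2 and M1ap, a gene of male meiosis, which read 1.35, 1.32 and 1.25 RPKM in WT and 9.43, 3.38 and 3.26 RPKM in DKO and rose by 1.33 ± 0.29 on the log2 scale (SE, adjusted p = 0.00698). Arl3, a small GTPase gene near Pcgf6, read 61.7, 68.2 and 72.5 RPKM in WT and 44.4, 48.9 and 43.9 RPKM in DKO and fell by 0.55 ± 0.09 on the log2 scale (SE, adjusted p = 0.00153).

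Loss of PCGF1 and PCGF6 was accompanied by many rises, the largest of them in genes low in WT. Of the tested genes, 2243 were higher in DKO (18.1% of those tested), 1480 were lower (11.9%) and 8694 were not called at an adjusted p under 0.05 from limma. Counts of called members in the gene lists below are to be read beside these shares. Most calls were small, with a median fold of 1.56 among the genes that rose and 0.707 among those that fell. At least 2-fold rises numbered 507 and falls 173, at least 4-fold 95 and 16, and at least 8-fold 18 and 3. In 2226 of the genes that rose every DKO library lay above every WT library, and in 1466 of those that fell every DKO library lay below. Among all 12417 tested genes, called or not, 3517 lay wholly above in this way and 2825 wholly below. Nearly every called gene was thus without overlap, so a lack of overlap given for a called gene below adds little to its call. The genes that rose by at least 2-fold came from low WT levels: 55 from under 0.1 RPKM, 197 from 0.1 to 1, 207 from 1 to 10, 44 from 10 to 100 and 4 from 100 RPKM or more. Of the genes that fell by at least 2-fold, 102 stood at 1 to 10 RPKM in WT, 63 at 10 to 100 and 8 above. The filter admits silent genes only through the group in which they are on, so 978 tested genes had a WT mean under 1 RPKM and 407 a DKO mean under 1. Among the 11032 genes at 1 RPKM or more in both groups, 1629 were higher (14.8%) and 1319 were lower (12%). Of all calls 60.2% were rises, against 46.8% after quantile normalisation and 47.2% after median-ratio scaling, so the balance of small changes depended on the scaling. The number of oocytes per library is not given. If a library pools several, a change in every oocyte and a larger change in some of them cannot be told apart. Falls numbered 958 without WT replicate 2 and 887 without WT replicate 3.

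**Figure D1:**
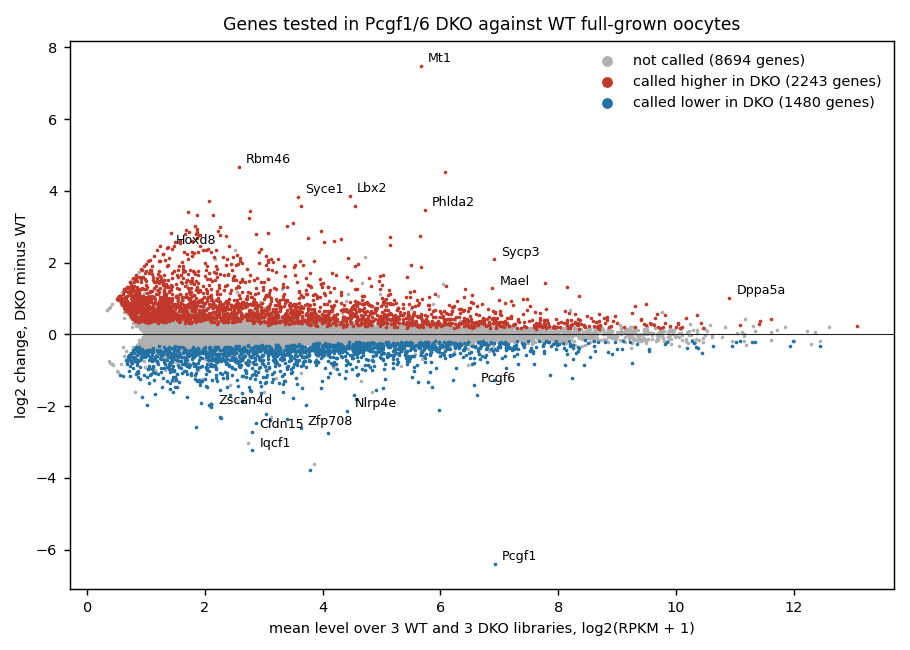
Each point is a tested gene, with its mean level over the 6 libraries as log2(RPKM + 1) on the horizontal axis and its log2 change, DKO minus WT, on the vertical axis. Red points are the 2243 genes called higher, blue points the 1480 called lower and grey points the 8694 not called; large changes lie at low to moderate levels, and Mt1 and Pcgf1 mark the extremes.

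The largest rise was in Mt1 (chromosome 8, 94178883 to 94180327), the gene of metallothionein 1, a small protein that binds zinc and copper. Mt1 read 2.83, 2.68 and 2.83 RPKM in WT and 640.0, 716 and 686 RPKM in DKO. It was low in every WT library and among the abundant transcripts of every DKO library, and it rose by 7.49 ± 0.11 on the log2 scale (SE, adjusted p = 1.13e-10). No other metallothionein gene was called. Mt2, its neighbour on chromosome 8, read 0.17, 0.1 and 0.18 RPKM in WT and 2.09, 0.67 and 0.08 in DKO, under the filter and overlapping. Mt3 was listed at 0 in WT and read 0.1, 0.2 and 0.09 RPKM in DKO, apart from WT but far under the filter and not tested, and Mt4 read 17.3, 25.9 and 23.2 RPKM in WT and 23.5, 22.6 and 33.5 RPKM in DKO, also overlapping. Of 18 tested metallothionein and metal transport genes 3 were higher and 2 lower, near the shares over all tested genes (18.1% and 11.9%), with a median log2 change of 0.11 against 0.03. Besides Mt1 the higher members were the copper importer Slc31a1, at 0.67 ± 0.10 log2 units (adjusted p = 0.000819), and the zinc transporter Slc30a2, at 0.59 ± 0.13 (adjusted p = 0.00688).

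Among the 25 largest rises were genes of very different roles. These 25 and the 20 largest falls were taken only from called genes in which all DKO libraries lay beyond all WT libraries. Rnaset2b, which encodes a lysosomal ribonuclease and has a near-identical copy, Rnaset2a, read 19.5, 8.73 and 12.8 RPKM in WT and 326, 329 and 311 RPKM in DKO. The copies may share reads, so its rise of 4.53 ± 0.30 log2 units (adjusted p = 5.92e-06) is uncertain. Pthlh, the gene of parathyroid hormone-related protein, read 6.67, 5.1 and 5.55 RPKM in WT and 69.5, 78.3 and 91.5 RPKM in DKO. Cd47, which encodes a surface protein that restrains phagocytosis, read 0.73, 0.2 and 0.26 RPKM in WT and 16.97, 11.3 and 11.3 RPKM in DKO. Both were apart in all 6 libraries, with log2 changes of 3.57 ± 0.16 (adjusted p = 6.99e-07) and 3.34 ± 0.19 (adjusted p = 2.52e-06). Gsto1, a glutathione transferase gene, read 0.8, 1.26 and 1.2 RPKM in WT and 20.2, 24.8 and 19.4 RPKM in DKO and rose by 3.43 ± 0.26 on the log2 scale (SE, adjusted p = 1.2e-05). Eif4ebp1, which encodes an inhibitor of cap-dependent translation, read 3.06, 2.46 and 2.59 RPKM in WT and 25.9, 30.4 and 31.5 RPKM in DKO and rose by 3.03 ± 0.16 on the log2 scale (SE, adjusted p = 1.51e-06). Gjb2, the gene of the gap junction protein connexin 26, read 0.76, 0.58 and 0.8 RPKM in WT and 9.37, 11.02 and 15.02 RPKM in DKO and rose by 2.88 ± 0.15 on the log2 scale (SE, adjusted p = 1.49e-06). These 3 genes were low in all WT libraries and at 9.37 RPKM or more in all DKO libraries. Adcy2, an adenylate cyclase gene, was listed at 0 in the 3 WT libraries and read 4.77, 6.46 and 7.33 RPKM in DKO. In all, 11 genes called higher were listed at 0 in every WT library, among them the neural factor gene Pou3f1, the RNA export gene Nxf2 and the histone genes Hist1h2bl, Hist1h1b and Hist1h2ae. An exact 0 may be a failed estimate, so no fold is given for them.

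**Figure D2:**
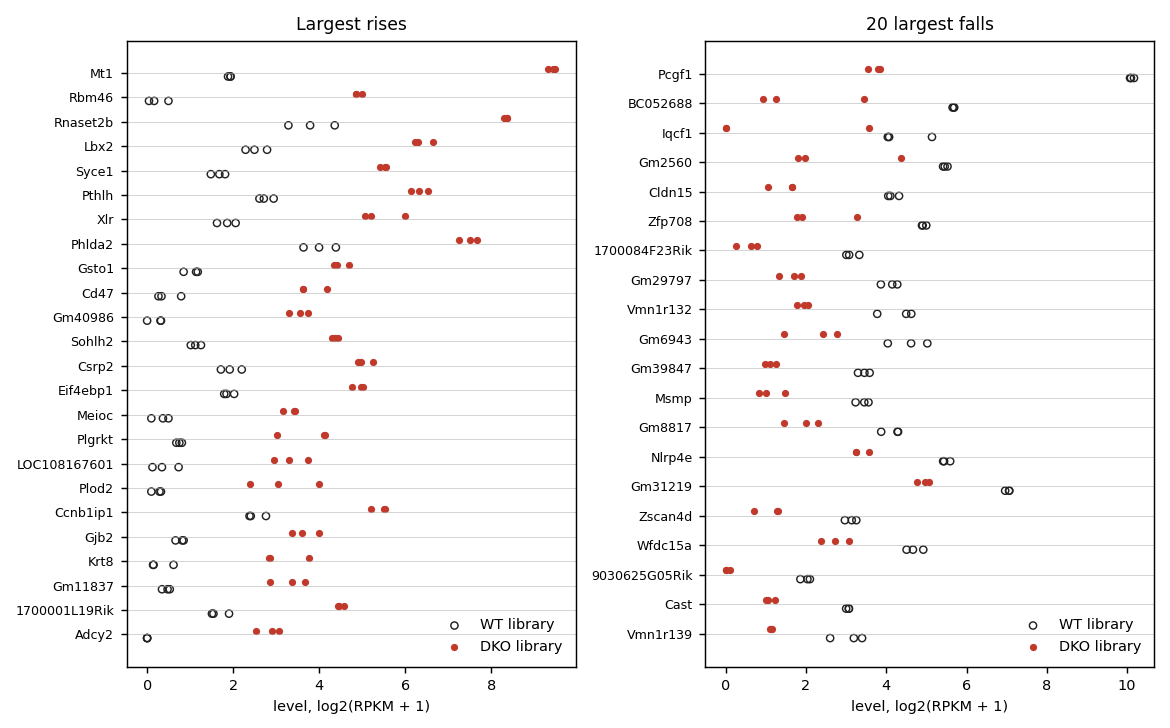
Levels as log2(RPKM + 1) in each library for the largest rises (left) and the 20 largest falls (right), with open circles for WT and red points for DKO. Only called genes whose 3 DKO libraries lie beyond the 3 WT libraries were picked, so the lack of overlap comes from that choice. Spread within DKO is widest for Iqcf1, Gm2560 and BC052688.

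Among the genes of meiotic prophase 14 of 33 tested members were higher, 3 were lower and 16 were not called, beside 18.1% higher and 11.9% lower over all tested genes. The median log2 change was 0.23 against 0.03, and of the 30 at 1 RPKM or more in both groups 11 were higher and 3 lower. Syce1, which encodes a central element protein of the synaptonemal complex, read 1.79, 2.51 and 2.2 RPKM in WT and 41.9, 44.95 and 45.6 RPKM in DKO. The groups lay far apart, and Syce1 rose by 3.84 ± 0.12 on the log2 scale (SE, adjusted p = 6.15e-08). Sycp3, the gene of a lateral element protein, was already expressed in WT and read 54.05, 57.4 and 59.6 RPKM in WT and 266, 271 and 209 RPKM in DKO. It was higher in every DKO library and rose by 2.1 ± 0.15 on the log2 scale (SE, adjusted p = 9.7e-06). Meioc, required to extend meiotic prophase, read 0.41, 0.29 and 0.07 RPKM in WT and 9.68, 9.9 and 7.93 RPKM in DKO, and Hormad1, an axis protein gene, read 0.82, 0.86 and 1.71 RPKM in WT and 13.3, 7.44 and 5.78 RPKM in DKO. Hormad1 varied more than 2-fold within DKO but did not overlap WT, and the log2 changes were 3.02 ± 0.21 (adjusted p = 7.49e-06) for Meioc and 2.16 ± 0.26 (adjusted p = 0.000213) for Hormad1. Syce3, another central element gene, rose by 2.05 ± 0.24 log2 units (adjusted p = 0.000178). Ccnb1ip1, whose product HEI10 acts in crossover formation, read 4.31, 5.78 and 4.2 RPKM in WT and 35.6, 45.02 and 44.7 RPKM in DKO and rose by 2.89 ± 0.13 on the log2 scale (SE, adjusted p = 7.81e-07). The direction was not shared by all: Sycp2, a partner of SYCP3 in the lateral element, changed by -0.64 ± 0.09 log2 units (adjusted p = 0.000689), and Mei4, needed for meiotic double-strand breaks, by -0.54 ± 0.09 (adjusted p = 0.00187).

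The piRNA and germ granule list, which serves transposon silencing, split evenly, with 6 of 28 tested members higher, 6 lower and a median of -0.08. The falls numbered 8 after quantile normalisation and 10 after median-ratio scaling, with 6 rises in each. Rbm46, an RNA-binding protein gene needed for germ cells to enter meiosis, read 0.03, 0.12 and 0.41 RPKM in WT and 30.9, 27.97 and 28.1 RPKM in DKO. It was near 0 in WT and above 27 RPKM in every DKO library, and it rose by 4.67 ± 0.19 on the log2 scale (SE, adjusted p = 6.69e-07). Mael, a piRNA factor gene, was well expressed in WT and read 69.2, 84.2 and 71.2 RPKM in WT and 190.1, 179 and 180.3 RPKM in DKO. No library overlapped, and Mael rose by 1.28 ± 0.11 on the log2 scale (SE, adjusted p = 2.69e-05). Taf7l, a germ cell paralogue of a general transcription factor subunit, read 0.07, 0 and 0 RPKM in WT and 2.49, 1.1 and 1.18 RPKM in DKO and rose by 1.3 ± 0.18 on the log2 scale (SE, adjusted p = 0.000509). Gtsf1, an abundant piRNA factor gene, went the other way, at 1534, 1463 and 1538 RPKM in WT and 1150.5, 1211 and 1141 RPKM in DKO, and fell by 0.37 ± 0.05 on the log2 scale (SE, adjusted p = 0.000374). Tdrd1 and Tdrd3, Tudor domain genes, changed by -0.43 ± 0.09 log2 units (adjusted p = 0.00558) and -0.35 ± 0.08 (adjusted p = 0.00742). Among 13 early follicle transcription factors 3 were higher and 1 lower. Sohlh2 and Sohlh1 encode partner factors of primordial follicles, and Sohlh2 read 1.02, 1.17 and 1.38 RPKM in WT and 20.7, 19.7 and 18.6 RPKM in DKO. Sohlh1 read 0.13, 0.06 and 0.11 RPKM in WT and 2.52, 3.48 and 3.56 RPKM in DKO. Neither gene overlapped between groups, and the log2 changes were 3.24 ± 0.14 (adjusted p = 6.99e-07) and 1.92 ± 0.32 (adjusted p = 0.00162).

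Many developmental transcription factor genes were higher in DKO, some of them from near silence. Only 6 of 39 Hox genes reached the filter, 5 of them with a WT mean under 1 RPKM, and all 6 were higher. Hoxd8 read 0.04, 0.12 and 0.19 RPKM in WT and 5.07, 5.0 and 4.98 RPKM in DKO, and Hoxd1 read 0.07, 0 and 0.02 RPKM in WT and 4.36, 3.36 and 3.34 RPKM in DKO. Both were under 0.2 RPKM in every WT library and stood clear of it in every DKO library, with log2 changes of 2.43 ± 0.14 (adjusted p = 2.74e-06) and 2.18 ± 0.13 (adjusted p = 2.74e-06). Hoxd9 and Hoxa10 reached DKO means of 2.02 and 1.73 RPKM. Of 23 tested members of other homeobox and T-box families 15 were higher, 1, Lbx1, was lower and 7 were not called, with a median of 0.95. In 9 of the 23 the WT mean was under 1 RPKM, and of the 13 at 1 RPKM or more in both groups 7 were higher. Lbx2 (chromosome 6, 83086365 to 83088243), a close neighbour of Pcgf1, read 4.63, 3.88 and 5.9 RPKM in WT and 99.2, 74.1 and 77.2 RPKM in DKO and rose by 3.87 ± 0.14 on the log2 scale (SE, adjusted p = 1.75e-07). Its WT and DKO libraries did not overlap. Otx1, a head patterning gene, stood at 1.84 ± 0.775 RPKM in WT and 18.4 ± 1.6 in DKO (SD, n = 3 each) and rose by 2.81 ± 0.19 on the log2 scale (SE, adjusted p = 5.68e-06). Irx2 and Irx1, neighbours on chromosome 13, rose by 2.05 ± 0.13 log2 units (adjusted p = 5.3e-06) and 1.59 ± 0.16 (adjusted p = 7.92e-05). Forkhead, GATA and SOX genes gave 4 rises (Sox2, Foxq1, Sox8 and Foxc1) and 1 fall among 7 tested. In 3 of the 7 the WT mean was under 1 RPKM, and of the 4 at 1 RPKM or more in both groups 1 was higher and 1 lower. The fall was Gata3, a regulator of trophoblast and T cells, which read 9.65, 12.4 and 11.3 RPKM in WT and 4.17, 2.96 and 4.59 RPKM in DKO and fell by 1.31 ± 0.16 on the log2 scale (SE, adjusted p = 0.000201).

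Of 22 tested growth factor ligand genes 11 were higher and 1 lower, and 5 of 15 higher among those at 1 RPKM or more in both groups. Without WT replicate 1 the rises numbered 7. Hbegf, a ligand of the epidermal growth factor receptor, read 1.04, 1.13 and 0.79 RPKM in WT and 12.8, 10.7 and 13.6 RPKM in DKO and rose by 2.75 ± 0.13 on the log2 scale (SE, adjusted p = 8.78e-07). Bmp7, at 0.1 ± 0.0557 RPKM in WT and 2.32 ± 0.0666 in DKO (SD, n = 3 each), and Pdgfa, at 3.15 ± 0.866 RPKM in WT and 8.6 ± 2.54 in DKO, rose by 1.59 ± 0.13 log2 units (adjusted p = 1.9e-05) and 1.2 ± 0.20 (adjusted p = 0.00169). The ligand that fell was Tgfb2, well expressed in WT, at 138, 139 and 140.0 RPKM in WT and 96.4, 105 and 99.2 RPKM in DKO. Its groups did not overlap, and it fell by 0.47 ± 0.07 on the log2 scale (SE, adjusted p = 0.000822).

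Of 34 genes reported as noncanonically imprinted through maternal H3K27me3, 10 were tested and 8 were higher, with a median of 1.27. Silence in WT is part of that count, since 7 of the 10 had a WT mean under 1 RPKM, and of the other 3 only Bbx was higher. Rbms1, an RNA-binding protein gene, read 1.03, 0.61 and 0.9 RPKM in WT and 11.3, 10.4 and 13.03 RPKM in DKO and rose by 2.77 ± 0.17 on the log2 scale (SE, adjusted p = 3.91e-06). Sall3, a zinc finger gene, read 0.04, 0.01 and 0 RPKM in WT and 4.62, 2.86 and 2.6 RPKM in DKO and rose by 2.07 ± 0.18 on the log2 scale (SE, adjusted p = 3.36e-05). Sh3gl3, an endophilin gene, rose by 1.68 ± 0.18 log2 units (adjusted p = 0.000121). Bbx, a DNA-binding protein gene, read 2.64, 2.25 and 2.3 RPKM in WT and 8.54, 8.61 and 9.27 RPKM in DKO and rose by 1.53 ± 0.13 on the log2 scale (SE, adjusted p = 2.11e-05). In each of these genes all DKO libraries were above all WT libraries.

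Genes imprinted through DNA methylation showed a median of -0.01, with 10 of 33 tested members higher and 3 lower, and the 5 largest rises all lay in 1 domain. Distal chromosome 7, from 140 to 145 Mb, held 9 genes that rose by at least 2-fold among 54 tested (16.7%, where 5.45% of all placed genes changed by at least 2-fold either way), and 6 of the 9 (Igf2, Ins2, Ascl2, Cd81, Cdkn1c and Phlda2) lie in the imprinted region between 142650768 and 143503145. Of the 9, Rnh1, Tspan4, Igf2, Ascl2 and Cd81 passed the filter through DKO alone, so only a rise could be seen in them. Phlda2, which restrains placental growth, read 14.9, 19.9 and 11.4 RPKM in WT and 151, 179 and 203 RPKM in DKO and rose by 3.47 ± 0.18 on the log2 scale (SE, adjusted p = 1.49e-06). Igf2, a fetal growth factor gene, read 0.09, 0.25 and 0.24 RPKM in WT and 7.44, 4.16 and 4.47 RPKM in DKO and rose by 2.38 ± 0.21 on the log2 scale (SE, adjusted p = 3.86e-05). Ascl2, a trophoblast transcription factor gene, read 0.19, 0.27 and 0.17 RPKM in WT and 3.47, 5.1 and 3.88 RPKM in DKO and rose by 2.08 ± 0.16 on the log2 scale (SE, adjusted p = 1.3e-05). Cdkn1c, a cell cycle inhibitor gene, read 3.28, 3.26 and 3.07 RPKM in WT and 15.8, 12.99 and 16.6 RPKM in DKO and rose by 1.93 ± 0.13 on the log2 scale (SE, adjusted p = 6.26e-06). None of these 4 genes overlapped between the groups. Kcnq1, a potassium channel gene in the same region, went down, at -0.55 ± 0.12 log2 units (adjusted p = 0.00769). Of 14 tested trophoblast and placental genes 9 were higher and 2 lower, with a median of 0.81. Krt8, a simple epithelial keratin gene, read 0.53, 0.11 and 0.1 RPKM in WT and 6.25, 6.1 and 12.5 RPKM in DKO, and Plac1, an X-linked placental gene, read 2.91, 4.06 and 3.39 RPKM in WT and 23.2, 13.8 and 15.3 RPKM in DKO. Their log2 changes were 2.85 ± 0.29 (adjusted p = 7.7e-05) and 2.02 ± 0.28 (adjusted p = 0.00051), with no overlap between groups.

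Several stress and metabolic lists held more rises than falls, beside 18.1% and 11.9% over all tested genes. In the p53 pathway and apoptosis list 16 of 29 tested members were higher and 2 lower, with a median of 0.59, and 8 of 20 were higher among those at 1 RPKM or more in both groups. Trp53 itself read 13.7, 14.2 and 13.1 RPKM in WT and 13.9, 13.7 and 15.2 RPKM in DKO, overlapping between the groups (adjusted p = 0.611). Bid, a pro-apoptotic gene, read 0.24, 0.1 and 0.2 RPKM in WT and 6.35, 5.11 and 5.12 RPKM in DKO and rose by 2.46 ± 0.20 on the log2 scale (SE, adjusted p = 1.96e-05). Gadd45b and Btg2, damage-responsive genes, rose by 1.94 ± 0.15 log2 units (adjusted p = 1.42e-05) and 1.3 ± 0.11 (adjusted p = 2.69e-05). Mdm4, an inhibitor of p53 with abundant transcripts in the oocyte, read 1669.9, 1579 and 1739 RPKM in WT and 1232, 1165 and 1116 RPKM in DKO and fell by 0.51 ± 0.11 on the log2 scale (SE, adjusted p = 0.00553). Glutathione and redox genes gave 13 rises and 2 falls among 36 tested, with 21 not called. Prdx6, a peroxiredoxin gene, read 5.71, 6.18 and 5.03 RPKM in WT and 44.5, 36.4 and 35.7 RPKM in DKO and rose by 2.58 ± 0.14 on the log2 scale (SE, adjusted p = 1.49e-06). Gclc, the rate-limiting enzyme of glutathione synthesis, and Gsr, glutathione reductase, rose by 1.18 ± 0.13 log2 units (adjusted p = 0.000132) and 1.08 ± 0.17 (adjusted p = 0.00102).

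Of 27 integrated stress response genes 8 were higher, 2 lower and 17 not called, with a median of 0.05, and without WT replicate 1 the rises numbered 5. The rises were led by Atf3 at 1.56 ± 0.20 log2 units (adjusted p = 0.000337) and the asparagine synthetase gene Asns at 1.54 ± 0.23 (adjusted p = 0.000717). Cell cycle regulators gave 16 rises and 3 falls among 35, or 12 and 4 after quantile normalisation. Ccne1, the gene of cyclin E1, read 1.23, 2.67 and 1.25 RPKM in WT and 7.31, 6.6 and 7.28 RPKM in DKO. It was higher in every DKO library and rose by 1.61 ± 0.18 on the log2 scale (SE, adjusted p = 0.000121). Cdkn1a, the p21 inhibitor gene, rose by 1.05 ± 0.15 log2 units (adjusted p = 0.000652), while Ccnb2, a cyclin B gene of meiotic resumption, changed by -0.44 ± 0.07 (adjusted p = 0.00175). Cholesterol synthesis genes gave 5 rises and 0 falls among 17 tested in limma, 12 not called, with 0 falls also at an unadjusted p under 0.05, among them Fdps at 1.27 ± 0.14 log2 units (adjusted p = 0.000115), Cyp51 at 1.02 ± 0.12 (adjusted p = 0.000206) and Sqle at 0.85 ± 0.10 (adjusted p = 0.000257). Of 14 glycolysis genes 6 were higher, 1 lower and 7 not called. The rises numbered 3 without WT replicate 1, WT replicate 3 or DKO replicate 1. Tpi1, triosephosphate isomerase, read 63.6, 64.3 and 59.4 RPKM in WT and 128, 128 and 147 RPKM in DKO and rose by 1.09 ± 0.07 on the log2 scale (SE, adjusted p = 5.39e-06). Pkm, pyruvate kinase, read 83.3, 93.2 and 91.5 RPKM in WT and 64.7, 59.97 and 59.01 RPKM in DKO and fell by 0.54 ± 0.08 on the log2 scale (SE, adjusted p = 0.00109), again without overlap.

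Of 44 tested replication-dependent histone genes 14 were higher and 2 lower, and 10 to 20 were higher when any 1 library was left out. In 14 of the 44 the WT mean was under 1 RPKM, so these passed the filter through DKO alone. Of the 28 at 1 RPKM or more in both groups 6 were higher and 2 lower, beside 14.8% and 12% of all such genes. Members of this family are near-identical copies and their RNA is mostly not polyadenylated, so single values are uncertain. Hist1h4d read 14.5, 14.5 and 9.97 RPKM in WT and 105, 76.4 and 90.6 RPKM in DKO and rose by 2.72 ± 0.23 on the log2 scale (SE, adjusted p = 2.79e-05). Hist1h2aa, a testis and oocyte variant, changed by -0.81 ± 0.15 log2 units (adjusted p = 0.00232). Rnu7, the RNA that guides histone mRNA processing, was listed at 0 in WT and read 34.2, 34.3 and 0 RPKM in DKO, so the groups overlapped. Its call (adjusted p = 0.043) was lost without any 1 of the WT libraries or DKO replicate 1 or 2, at adjusted p-values of 0.0948, 0.0968, 0.101, 0.139 and 0.145. Housekeeping groups moved little, rose about as often as all tested genes, and changed their balance with the scaling. Cytosolic ribosomal proteins gave 15 rises and 5 falls of 82, or 11 and 11 after median-ratio scaling, and mitochondrial ribosomal proteins 16 and 5 of 76, or 10 and 10. Complex I subunits gave 5 rises and 2 falls of 37, or 0 and 6 after that scaling, and proteasome subunits 9 and 1 of 45, or 8 and 5. Without any 1 library the rises numbered 9 to 13, 9 to 12, 0 to 3 and 4 to 8 in these 4 lists. Of 13 mitochondrially encoded transcripts 0 were called in limma, 0 also at an unadjusted p under 0.05, and their median log2 change was -0.22.

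In the lists of the Polycomb and chromatin machinery 0 to 3 members were called in each direction, to be read beside 18.1% higher and 11.9% lower over all tested genes. Leaving out any 1 library moved these counts by at most 2. Of 9 tested PRC1.1 genes 2 were higher and 2 lower, Pcgf1 included. Bcor, the corepressor subunit of PRC1.1, read 0.83, 0.62 and 0.93 RPKM in WT and 7.05, 9.12 and 8.52 RPKM in DKO. It was higher in every DKO library and rose by 2.36 ± 0.12 on the log2 scale (SE, adjusted p = 1.49e-06). Of 13 PRC1.6 genes limma called 0 higher (1 at an unadjusted p under 0.05) and 2 lower, Pcgf6 included. In the other PRC1 forms Pcgf5 read 5.39, 6.88 and 6.27 RPKM in WT and 13.8, 11.9 and 14 RPKM in DKO and rose by 0.99 ± 0.14 on the log2 scale (SE, adjusted p = 0.00063), and Phc3, a canonical PRC1 gene, rose by 0.61 ± 0.14 (adjusted p = 0.00872). Of 13 PRC2 genes 0 were higher (1 at an unadjusted p under 0.05) and 2 lower, among them the accessory subunit Aebp2 at -0.44 ± 0.10 log2 units (adjusted p = 0.00852). MLL and COMPASS genes gave 1 fall among 15, or 3 after quantile normalisation and 5 after median-ratio scaling. Among H3 lysine demethylases Kdm1b, which removes H3K4 methylation and is needed to set maternal imprints, read 30.03, 27.8 and 21.8 RPKM in WT and 47.4, 40.03 and 40.3 RPKM in DKO and rose by 0.67 ± 0.15 on the log2 scale (SE, adjusted p = 0.00792). DNA methylation genes gave 3 rises and 2 falls among 15, or 2 and 4 after median-ratio scaling. Dnmt1, the maintenance methyltransferase, read 277, 289.6 and 286 RPKM in WT and 229, 203 and 215 RPKM in DKO, and Dnmt3l, the cofactor of new methylation in oocytes, read 66.9, 67.5 and 66.5 RPKM in WT and 49.3, 43.7 and 49.5 RPKM in DKO. Both were lower in all DKO libraries than in all WT libraries, with log2 changes of -0.40 ± 0.09 (adjusted p = 0.00789) and -0.49 ± 0.10 (adjusted p = 0.0036).

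**Figure D3:**
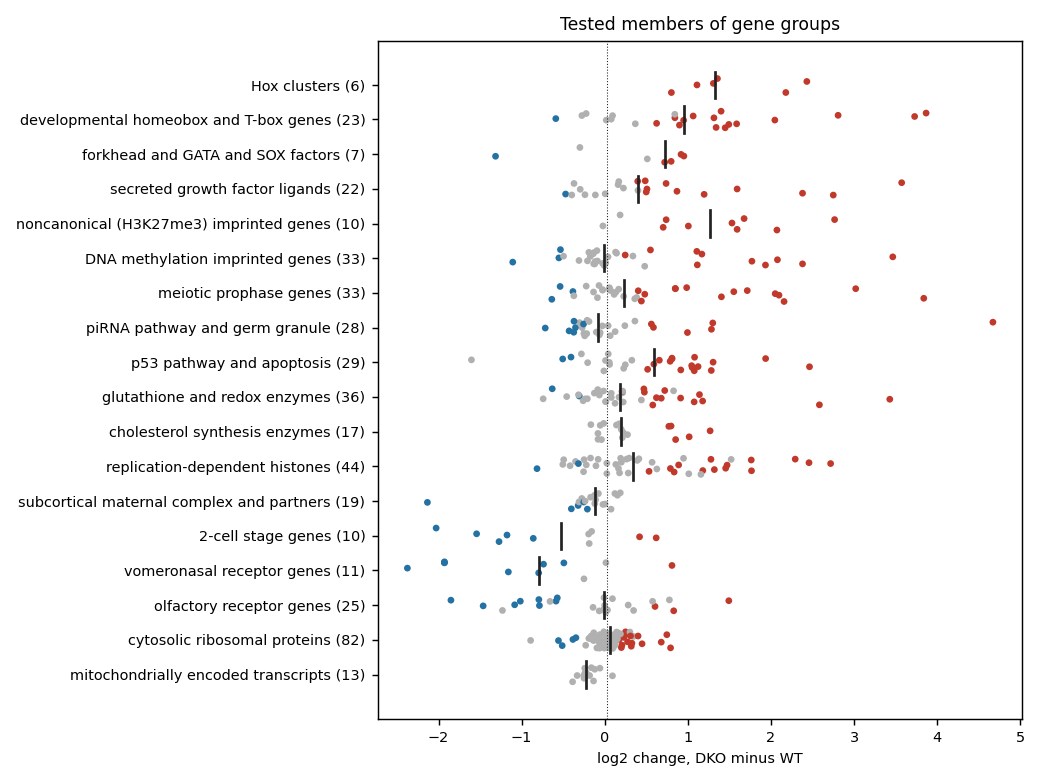
Log2 change, DKO minus WT, of every tested member of 18 gene groups, with the number tested in parentheses; red points were called higher, blue lower and grey not called, the black bar is the median of the group and the dotted line the median over all tested genes (0.03). Hox, homeobox and noncanonically imprinted genes lie to the right, ribosomal and mitochondrial genes near 0, and 2-cell stage and vomeronasal receptor genes to the left.

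Large falls were fewer. Cldn15, a tight junction claudin gene, read 15.6, 18.96 and 16.2 RPKM in WT and 1.06, 2.13 and 2.13 RPKM in DKO. The groups were far apart, and it fell by 2.71 ± 0.18 on the log2 scale (SE, adjusted p = 5e-06). BC052688, an uncharacterised gene, read 50.3, 50.7 and 49.3 RPKM in WT and 0.92, 9.91 and 1.4 RPKM in DKO and fell by 3.79 ± 0.50 on the log2 scale (SE, adjusted p = 0.000407). DKO replicate 2 stood above the other DKO libraries, and all 3 were below WT. Nlrp4e, an oocyte NLRP family gene, read 42.4, 41.7 and 47.3 RPKM in WT and 8.5, 10.8 and 8.46 RPKM in DKO and fell by 2.13 ± 0.10 on the log2 scale (SE, adjusted p = 7.81e-07). Cast, the gene of the calpain inhibitor calpastatin, read 7.0, 7.38 and 7.4 RPKM in WT and 1.33, 1.02 and 1.06 RPKM in DKO and fell by 1.95 ± 0.11 on the log2 scale (SE, adjusted p = 2.41e-06). Iqcf1, an IQ motif gene, read 34.2, 15.8 and 15.4 RPKM in WT and 10.8, 0 and 0 RPKM in DKO and fell by 3.23 ± 0.80 on the log2 scale (SE, adjusted p = 0.0126). It was listed at 0 in DKO replicates 2 and 3, while DKO replicate 1 reached 10.8 RPKM against a lowest WT value of 15.4. Msmp, a secreted chemoattractant gene, fell to a DKO mean of 1.19 RPKM from 9.71, at -2.31 ± 0.19 log2 units (adjusted p = 1.96e-05).

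Some genes of the 2-cell stage and of sensory receptor families fell as well. Of 10 tested 2-cell stage genes 5 were lower and 2 higher, with a median of -0.53, and 8 were lower after median-ratio scaling. Of the 8 at 1 RPKM or more in both groups 3 were lower and 2 higher, with a median of -0.19. Zscan4d, a telomere regulator gene with near-identical copies, read 8.54, 6.83 and 7.82 RPKM in WT and 0.62, 1.41 and 1.48 RPKM in DKO, and Zscan4f read 12.2, 9.04 and 10.6 RPKM in WT and 1.84, 4.26 and 3.16 RPKM in DKO. Neither overlapped between the groups, at log2 changes of -2.03 ± 0.16 (adjusted p = 1.9e-05) and -1.54 ± 0.25 (adjusted p = 0.00129), but the copies may share reads. Obox7, an oocyte homeobox gene, read 378, 339.5 and 399 RPKM in WT and 178, 203 and 235 RPKM in DKO and fell by 0.86 ± 0.10 on the log2 scale (SE, adjusted p = 0.000217). The 2 members that rose were Tcstv3 and Tcstv1, at 0.62 ± 0.10 log2 units (adjusted p = 0.00175) and 0.42 ± 0.10 (adjusted p = 0.00841). Of 11 tested vomeronasal receptor genes 8 were lower and 1 higher, and 5 of the 7 at 1 RPKM or more in both groups were lower. Vmn1r132 read 23.6, 12.7 and 21.6 RPKM in WT and 2.42, 2.86 and 3.13 RPKM in DKO and fell by 2.38 ± 0.26 on the log2 scale (SE, adjusted p = 0.000114). Vmn1r112, Vmn1r139 and Vmn1r157 carried identical values in every library, so these 3 of the 8, which are also 3 of the 5, are 1 measurement, at -1.93 ± 0.25 log2 units (adjusted p = 0.000345). Of 25 olfactory receptor genes 8 were lower, 3 higher and 14 not called, with a median of -0.01, and 5 were lower without DKO replicate 2. The falls were led by Olfr878, which read 10.2, 10.1 and 11.9 RPKM in WT and 2.47, 2.51 and 1.8 RPKM in DKO and fell by 1.85 ± 0.13 on the log2 scale (SE, adjusted p = 8.34e-06). In the Xlr family of the X chromosome, Xlr read 3.16, 2.63 and 2.08 RPKM in WT and 62.3, 32.2 and 35.97 RPKM in DKO and rose by 3.57 ± 0.25 on the log2 scale (SE, adjusted p = 7.06e-06). Its relative Xlr4a went the other way, at 69.5, 64.1 and 64.3 RPKM in WT and 36.7, 30.9 and 28.5 RPKM in DKO, and fell by 1.03 ± 0.12 on the log2 scale (SE, adjusted p = 0.000145). Of 11 tested Xlr genes 1 was higher and 4 lower, or 2 lower without WT replicate 1, DKO replicate 1 or DKO replicate 3, and these copies may share reads too.

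The abundant maternal transcripts changed less. Of 19 genes of the subcortical maternal complex and its partners limma called 0 higher (0 also at an unadjusted p under 0.05) and 5 lower, or 3 lower without WT replicate 1 or 3, with a median of -0.12, and Tle6, a core subunit, read 617, 625 and 637 RPKM in WT and 454, 474 and 494 RPKM in DKO and fell by 0.40 ± 0.07 on the log2 scale (SE, adjusted p = 0.00268). Of 28 maternal mRNA storage and decay genes 3 were higher and 1 lower, or 2 and 7 after median-ratio scaling. Zar1l, a maternal mRNA-binding protein gene, read 649, 700.3 and 658 RPKM in WT and 1009, 946 and 1017 RPKM in DKO and rose by 0.57 ± 0.06 on the log2 scale (SE, adjusted p = 8.66e-05). Pabpn1l, an oocyte poly(A)-binding protein gene, rose by 1.0 ± 0.12 log2 units (adjusted p = 0.0002). Among genes with a WT mean of 100 RPKM or more, Dppa5a, an RNA-binding protein gene of pluripotent cells, read 1348, 1566 and 1163 RPKM in WT and 2888, 2719 and 2583 RPKM in DKO and rose by 1.01 ± 0.14 on the log2 scale (SE, adjusted p = 0.00051). Fabp5, a fatty acid-binding protein gene, read 181, 179 and 173 RPKM in WT and 407, 419.5 and 528 RPKM in DKO and rose by 1.33 ± 0.15 on the log2 scale (SE, adjusted p = 0.000122). Crabp2, which carries retinoic acid, and B2m, the light chain of MHC class I, rose by 1.08 ± 0.18 log2 units (adjusted p = 0.00153) and 0.94 ± 0.11 (adjusted p = 0.000156). Besides Pcgf1 and Pcgf6 the abundant genes that fell most included the surface protein genes Nrn1l, at -1.27 ± 0.12 log2 units (adjusted p = 5.46e-05), and Cd7, at -1.27 ± 0.22 (adjusted p = 0.00213). Of 16 pluripotency genes 7 were higher, led by Klf4 at 1.93 ± 0.13 log2 units (adjusted p = 5.51e-06), and 2 lower.

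The non-oocyte markers that passed the test moved in both directions. Of the 5 tested granulosa and cumulus cell markers 3 were higher and 1 lower, or 1 and 1 after quantile normalisation. Nr5a2, a nuclear receptor gene, read 5.18, 5.49 and 5.23 RPKM in WT and 7.69, 9.21 and 10.6 RPKM in DKO. Inha, the inhibin alpha gene, read 0.12, 0.37 and 0.1 RPKM in WT and 1.7, 0.86 and 0.56 RPKM in DKO, and Cyp11a1, which encodes the enzyme that starts steroid synthesis, read 1.79, 1.83 and 1.44 RPKM in WT and 1.98, 2.67 and 3.36 RPKM in DKO. Their log2 changes were 0.68 ± 0.11 (adjusted p = 0.00156), 0.74 ± 0.24 (adjusted p = 0.039) and 0.44 ± 0.14 (adjusted p = 0.0441). Of these 3, Nr5a2 alone stayed called without any 1 of the WT libraries or without DKO replicate 2. The endothelial marker Flt1, a receptor gene, changed by 0.54 ± 0.13 log2 units (adjusted p = 0.0118), 1 of 3 tested. Cyp19a1, the aromatase gene, read 25.6, 22.1 and 22.3 RPKM in WT and 13.8, 15.4 and 16.1 RPKM in DKO and fell by 0.60 ± 0.09 on the log2 scale (SE, adjusted p = 0.000917), while C1qb, a complement gene, read 28.5, 30.8 and 21.03 RPKM in WT and 59.7, 44.4 and 42.4 RPKM in DKO and rose by 0.84 ± 0.16 on the log2 scale (SE, adjusted p = 0.00311). Dcn, a stroma marker that is also imprinted, read 3.04, 1.98 and 2.24 RPKM in WT and 0.86, 0.5 and 0.4 RPKM in DKO and fell by 1.11 ± 0.27 on the log2 scale (SE, adjusted p = 0.0111). Foxl2, Col1a1, Ptprc and Cdh5 were listed at 0 in all 6 libraries, but most markers were not. Those at 0 numbered 1 of 21 for granulosa and cumulus cells, 5 of 12 for stroma, 3 of 12 for blood and 1 of 7 for endothelium. Of the endothelial markers 4 stayed under 1 RPKM in all 6 libraries, while Pecam1 read 5.65 to 8.42 RPKM and Tek 1.8 to 2.6. Whether RNA of other cells had a part in the changes of other genes was not tested.

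Called genes were found on every autosome and on the X, with a few local groups, and 0 were called by limma on the Y (1 tested) and in the mitochondrial genome (13 tested). The share of tested genes called higher ran from 14.2% on chromosome 5 to 23.1% on chromosome 13 and 24.3% on the X. The X gave 24.28% higher and 10.1% lower against 17.95% and 12% for the autosomes, with a median log2 change of 0.11 against 0.03. After quantile normalisation these shares were 19.71% and 14.9% on the X against 15.1% and 17.23%. Protein-coding genes were called higher in 18.95% and lower in 11.19% of 10527, whereas of 1328 long noncoding RNAs 13.93% were higher and 17.39% lower. The difference between these classes was not tested.

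**Figure D4:**
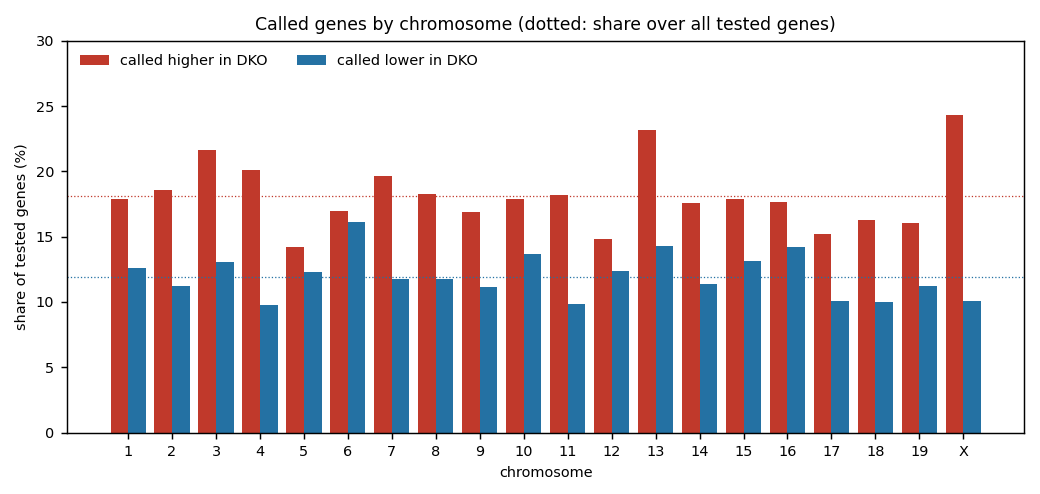
Share of tested genes called higher (red) and lower (blue) in DKO for chromosomes 1 to 19 and X, in percent, with dotted lines at the shares over all tested genes (18.1% and 11.9%). The bars for rises are highest on the X (24.3%) and chromosome 13 (23.1%) and lowest on chromosome 5 (14.2%).

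Neighbours here are genes next to each other among those tested, and untested genes may lie between them. On chromosome 16 the neighbours Ift57, Cd47 and Bbx all rose by at least 2-fold, at log2 changes of 1.23, 3.34 and 1.53. On chromosome 12 Bzw2, Ankmy2 and Ispd did so, at 2.0, 2.16 and 1.2, and on the X Bhlhb9, Arxes2 and Arxes1, at 1.31, 2.1 and 1.09. On chromosome 2 Hoxd8, the noncoding RNA gene Haglr and Hoxd1 rose together, from WT means of 0.12, 0.013 and 0.03 RPKM. They passed the filter through DKO alone, as did Ift57, Cd47, Ispd and Bhlhb9, so only a rise could be seen. Falls in a row were found on chromosome 7 in Zscan4c, Zscan4d, Zscan4f and Gm4224, and in Gm4541, Vmn1r132, Gm6176 and Vmn1r139. Of these, Zscan4c, Gm4224 and Gm6176 passed the filter through WT alone. The stretch of 5 Mb with most 2-fold changes, singled out after the values were seen, was 65 to 70 Mb of chromosome 13, with 7 rises and 5 falls among 44 tested genes (27.3%, against 5.45% of all placed genes). It holds Zfp708, a KRAB zinc finger gene, which read 29.02, 30.9 and 28.6 RPKM in WT and 2.45, 8.58 and 2.74 RPKM in DKO and fell by 2.62 ± 0.31 on the log2 scale (SE, adjusted p = 0.000201). It also holds Mterf3, a mitochondrial transcription factor gene, which read 11.1, 11.1 and 11.1 RPKM in WT and 52.1, 34.2 and 49.6 RPKM in DKO. The Mterf3 groups did not overlap, at a log2 change of 1.91 ± 0.23 (adjusted p = 0.000203). From 20 to 25 Mb the same chromosome carried 10 rises, all histone genes, among 60 tested (16.7%). Of these, Hist1h2bl, Hist1h3h, Hist1h1b, Hist1h2bp, Hist1h2ae, Hist1h3d and Hist1h3c passed the filter through DKO alone, so only a rise could be seen. From 65 to 70 Mb Gm40983, Gm40986 and Adcy2 also passed it through DKO alone, and Gm40989, Gm10767 and 9430065F17Rik through WT alone.

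The PRC1-CD oocytes, in which PRC1 can no longer ubiquitinate H2A, share no library with the DKO comparison. The table has 2 libraries per group, and the second PRC1-CD library carries the tissue label embryo but the stage label full-grown oocyte. In that comparison 17.3% of 13376 tested genes were higher and 5.61% lower, and leaving out any 1 of the 4 libraries gave 1238 to 1543 calls in place of 3059. Each of those fits has 1 library in a group, which is assumed to vary like the other group, whose 2 libraries alone give the spread. Of the 507 genes that rose by at least 2-fold in DKO, 492 were tested there, and 427 (86.8%) were higher and 4 lower. Of the 173 that fell by at least 2-fold, 172 were tested, and 65 (37.8%) were lower and 27 (15.7%) higher. Of the 25 largest rises 21 of 23 tested were higher in PRC1-CD, and of the 20 largest falls 9 were lower and 2, Iqcf1 and Zscan4d, were higher. Mt1 stood at 1.56 ± 0.00707 RPKM in the PRC1-WT controls and 648 ± 144 in PRC1-CD (SD, n = 2 each), a log2 change of 7.97 ± 0.19 (SE, adjusted p = 1.18e-05). Rbm46 stood at 0.3 ± 0.0707 RPKM in the PRC1-WT controls and 30.97 ± 6.27 in PRC1-CD, a log2 change of 4.61 ± 0.20 (SE, adjusted p = 9.17e-05). The oocyte tables were normalised separately, so levels are set side by side and not compared. Lbx2 stood at 6.4 ± 0.834 RPKM in the PRC1-WT controls and 11.6 ± 1.43 in PRC1-CD, a log2 change of 0.77 ± 0.19 (SE, adjusted p = 0.0247), against 3.87 in DKO, and that difference was not tested. Rnaset2b went the other way, at 319.5 ± 27.7 RPKM in the PRC1-WT controls and 14.8 ± 10.9 in PRC1-CD, a log2 change of -4.54 ± 0.44 (SE, adjusted p = 0.000653). Zscan4d stood at 11.7 ± 0.0283 RPKM in the PRC1-WT controls and 39.4 ± 9.5 in PRC1-CD, a log2 change of 1.65 ± 0.20 (SE, adjusted p = 0.0016). On chromosome 13 from 65 to 70 Mb 9 of the 12 genes were tested in PRC1-CD, and 1700001L19Rik alone among them was called.

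The TKO libraries were compared with the same 3 WT libraries, so only levels are set side by side here. Some genes high in DKO were low in TKO: Syce1 read 2.75, 2.02 and 2.55 RPKM in TKO against a DKO mean of 44.1, and Ccnb1ip1 read 0.63, 0.69 and 0.64 RPKM against 41.8. Arxes2 read 0.37, 0.31 and 0.31 RPKM against a DKO mean of 16.9, and Xlr read 3.63, 1.91 and 2.94 RPKM against 43.5. In each of these the highest TKO library was under the lowest DKO library. Others stayed high in TKO: Lbx2 read 94.3, 90.5 and 98.9 RPKM against a DKO mean of 83.5, and Phlda2 read 105, 142 and 127 RPKM against 177.6. Mt1 was higher still, at 1353, 1938 and 1780.0 RPKM.

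Few of these changes were seen in maternal DKO morulae, where the mother's oocyte lacked both genes. There 0.346% of 12733 tested genes were higher and 1.46% lower. Of the 507 genes that rose by at least 2-fold in DKO oocytes 333 were tested in morulae, and 2 were higher and 7 lower. The 2 were Lbx2, at 1.54 ± 1.23 TPM in WT and 5.88 ± 2.73 in maternal DKO (SD, n = 10 each) with a log2 change of 1.38 ± 0.32 (SE, adjusted p = 0.0203), and the collagen-modifying enzyme gene Plod2, at 9.56 ± 2.11 TPM in WT and 26.5 ± 15.2 in maternal DKO with 1.21 ± 0.28 (SE, adjusted p = 0.0219). Of the 173 that fell 60 were tested and 3 were lower. Mt1 stood at 14290.0 ± 1416 TPM in WT and 13800.0 ± 3888 in maternal DKO, high in both groups of morulae, with a log2 change of -0.11 ± 0.21 (SE, adjusted p = 0.813). Phlda2 stood at 10.9 ± 4.54 TPM in WT and 29.03 ± 20.6 in maternal DKO, a log2 change of 0.80 ± 0.54 (SE, adjusted p = 0.438) that did not pass the test. Starting from morulae, of the 44 genes higher there 23 were tested in oocytes and 4 were higher in DKO oocytes, and of the 186 lower there 153 were tested, with 33 higher and 20 lower in DKO oocytes, beside 18.1% and 11.9% of all tested oocyte genes.

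**Figure D5:**
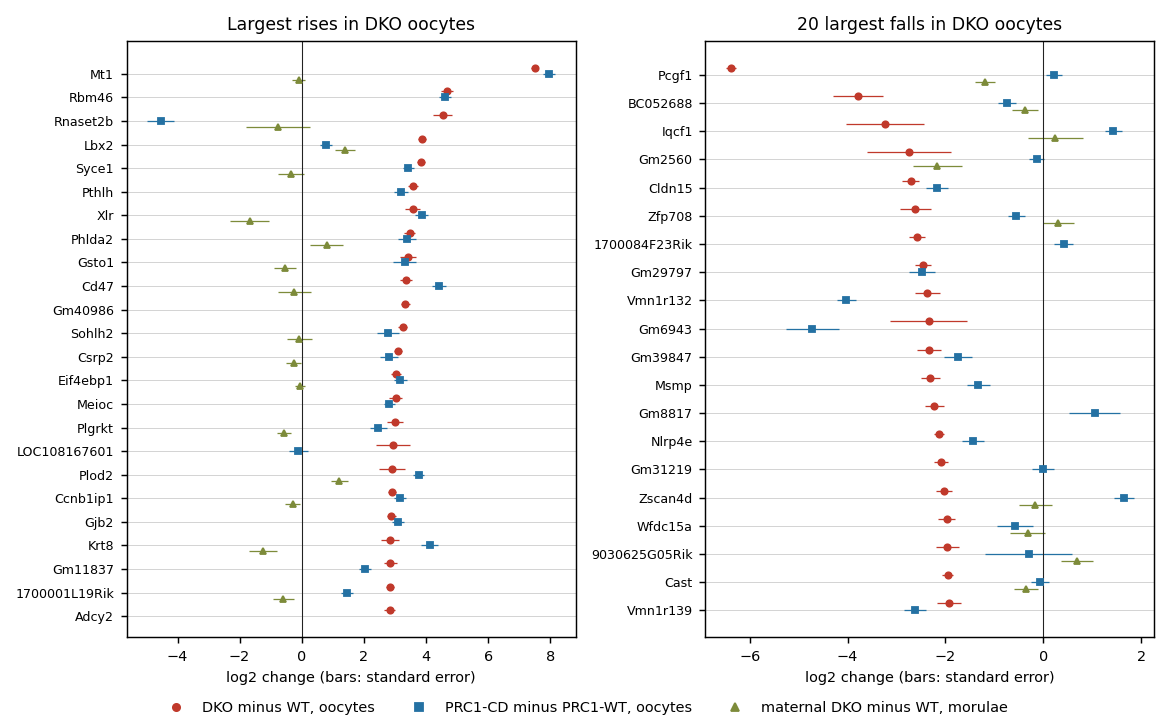
Log2 changes with standard errors of the largest rises (left) and 20 largest falls (right) in DKO oocytes (red), beside PRC1-CD against PRC1-WT oocytes (blue squares) and maternal DKO against WT morulae (green triangles); a symbol is missing where a gene was not tested. Most blue symbols on the left lie close to the red ones, apart from Rnaset2b, Lbx2, LOC108167601 and 1700001L19Rik, and the green symbols scatter around 0.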

How the data were processed

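RNA was measured as polyadenylated RNA in 6 mouse oocyte libraries, copied with SMART-Seq v4 and made into libraries with Nextera XT per the labels' protocols. Strand is not marked by these kits, so antisense overlaps cannot be separated. Trim Galore 0.6.4, STAR 2.7.3 and 2.7.6, RSEM 1.3.1 and featureCounts 1.6.0, with mm10 and GRCm38, are named in the submitters' processing notes, without saying which made a given table. The deposited oocyte tables hold RPKM made by the authors. The deposited morula table is titled RPKM, but its libraries each sum to nearly the same fixed total, so the values deposited by the authors were treated as TPM.

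Of 35869 entries, 27 with names turned into dates were dropped, and 32401 of 35842 symbols matched GRCm38.p6. Values were analysed as log2(RPKM + 1), which understates changes of low genes, with limma 3.58.1 in R 4.3.3 (lmFit, eBayes with trend). The 9 WT, DKO and TKO libraries shared 1 estimate of the spread, genes needed a mean of 1 in WT or DKO, and tests were two-sided with Benjamini-Hochberg adjustment over all tested genes at 0.05. The tables were normalised separately and tested separately. The groups, 51 gene lists and tests were chosen with earlier results of these data known. Genes named are the 25 largest rises and 20 largest falls without overlap, the 10 largest each way above 100 RPKM in WT, up to 5 called members per list and direction, neighbours of the deleted genes within 1 Mb, and runs of at least 3 neighbours changed 2-fold. Some genes this rule takes are not reported here. Trp53, Mterf3 and the stretches of 5 Mb were chosen after their values were seen. Alternatives were pseudocount, filter, scaling, libraries in the fit, replicate block, trend and leaving out each library. Python 3.11.15, pandas 2.3.3 and matplotlib 3.10.9 made tables and figures. The test was tried on simulated data.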

Additional observations from a re-analysis of the deposited data

Results flagged for a closer look

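Libraries far from the others of their group were looked for among the leading genes in morulae, in 52 groups of 10 libraries, and 7 groups held one; chance gives about 1 in 20. Lbx2 had a lowest maternal DKO library at 0.17 TPM, with the next at 3.01. Csrp2 had a lowest maternal DKO library at 11.96 TPM, with the next at 28.53. Krt8 had a lowest WT library at 327.1 TPM with the next at 746.6, and a lowest maternal DKO library at 26.25 TPM with the next at 161.7. Iqcf1 had a highest WT library at 20.94 TPM, with the next at 3.92. Zscan4d had a highest WT library at 7.37 TPM, with the next at 1.77. Wfdc15a had a lowest WT library at 92.29 TPM, with the next at 159.0.

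Plgrkt, a plasminogen receptor gene, was above the WT mean in all 3 DKO oocyte libraries and below the WT mean in all 10 maternal DKO morulae, where its log2 change of -0.573 ± 0.235 (SE) did not pass limma's test (adjusted p = 0.192). It was the only such gene among 26 compared, and the difference between oocytes and morulae was not tested.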

How the results depend on the processing

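Of 337 genes named by rule or in the text, 0 of those called by limma reversed their direction under any alternative run. A pseudocount of 0.1 gave 909 rises and 315 falls of at least 2-fold, where the smaller pseudocount widens the folds of low genes. A mean of at least 5 RPKM tests fewer genes and gave 1354 rises, 266 of them at least 2-fold. With only the 6 WT and DKO libraries in the fit, 2634 genes rose and 1912 fell. Leaving out 1 library gave 1563 to 1893 rises and 887 to 1198 falls, of which 470 to 551 and 159 to 182 were at least 2-fold, and 1238 to 1543 calls in PRC1-CD, where 1 group then has a single library and the other alone gives the spread. Quantile normalisation gave 1875 rises and 2133 falls, and 1863 of the 2243 rises and 1474 of the 1480 falls were called there too. Of the 337, 45 to 65 lost their call without 1 library, 52 without a filter, 18 after quantile normalisation, 12 after median-ratio scaling and 3 with a pseudocount of 0.1. Those described above with their own test that lost their call in any alternative were Rnu7, Inha and Cyp11a1.

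Whether the replicate numbers pair the samples is not in the labels. Same-numbered WT and DKO libraries deviated together with r of 0.021, -0.048 and 0.109, and 3 libraries per group are too few to settle it. With the replicate number as a block 2081 genes rose and 1326 fell, 509 and 176 of them by at least 2-fold. Not every library correlated best with its own number. Genes under 1 RPKM rest on few reads at this depth.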

Other observations

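Large families were also sorted by direction. Over all tested genes 18.1% were higher and 11.9% lower, and rises made up 60.2% of calls, or 46.8% after quantile normalisation. Zinc finger genes named Zfp gave 50 rises and 19 falls among 241 tested, or 39 and 35 after quantile normalisation. The falls numbered 10 without WT replicate 1 and 12 without DKO replicate 1. Zfp105 read 0.46, 1.21 and 0.62 RPKM in WT and 6.09, 8.77 and 8.89 RPKM in DKO and rose by 2.35 ± 0.21 on the log2 scale (SE, adjusted p = 4.02e-05). Zfp711, an X-linked gene near 0 in WT, stood at 0.00333 ± 0.00577 RPKM in WT and 2.42 ± 1.65 in DKO (SD, n = 3 each) and rose by 1.66 ± 0.27 on the log2 scale (SE, adjusted p = 0.00149). Zfp354b and Zfp248 rose by 1.49 ± 0.12 log2 units (adjusted p = 1.43e-05) and 1.32 ± 0.12 (adjusted p = 4.17e-05), and Zfp85 changed by -0.95 ± 0.13 (adjusted p = 0.000427). Solute carriers gave 29 rises and 26 falls among 163 tested, or 24 and 39 after quantile normalisation, so their balance turned with the scaling, and without WT replicate 1 or 3 the rises numbered 16 and 18. Slc50a1, a sugar transporter gene, read 1.55, 1.67 and 1.69 RPKM in WT and 10.4, 10.8 and 11.1 RPKM in DKO and rose by 2.16 ± 0.14 on the log2 scale (SE, adjusted p = 4.74e-06). Slc9b1, a sodium and proton exchanger gene well expressed in WT, read 97.5, 83.3 and 80.8 RPKM in WT and 36.1, 33.03 and 33.4 RPKM in DKO and fell by 1.32 ± 0.12 on the log2 scale (SE, adjusted p = 3.07e-05). The groups of both genes did not overlap.

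Surface and epithelial families moved in both directions. Of 7 tested Ly6 family genes 3 were higher and 1 lower, and Ly6e, a receptor gene of the placental syncytium, read 26.8, 22.04 and 18.04 RPKM in WT and 89.6, 88.5 and 85.5 RPKM in DKO and rose by 1.95 ± 0.16 on the log2 scale (SE, adjusted p = 2.15e-05). Of 13 keratin genes 2 were higher and 3 lower, with Krt222 at 1.39 ± 0.17 log2 units (adjusted p = 0.000204) and Krt88 at -1.63 ± 0.12 (adjusted p = 1.31e-05). Of 12 claudin genes 3 were higher and 3 lower, or 1 and 3 after quantile normalisation. Cldn4, a tight junction gene, changed by 0.69 ± 0.15 log2 units (adjusted p = 0.00752), against a fall of Cldn15 at -2.71 ± 0.18 (adjusted p = 5e-06).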
